A study of Mus musculus with 18 samples.

Results

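Nodal and activin are secreted ligands of the TGF-β family that signal through the same receptors, and 7 genes of this pathway were followed in mouse pluripotent stem cells. The genes were chosen by name: the ligands *Nodal* and *Gdf3*, the co-receptor *Tdgf1*, the secreted antagonists *Lefty1*, *Lefty2* and *Cer1*, and the intracellular repressor *Skil*. All 7 were found among the 35773 genes of the count tables. RNA-seq had been carried out on 18 samples, 3 in each of 6 groups, all labelled as wild type and strain 129S2/SvPasCrl. ASCs (advanced pluripotent stem cells) were derived from AFSCs and kept in ABCL medium, which is N2B27 with activin A, BMP4, the Wnt agonist CHIR99021 and LIF. AFSCs are stem cells grown from blastocysts in N2B27 with activin A and bFGF. ESCs were naive embryonic stem cells in 2i/LIF, to which no activin is added, and ESC-ASCs were ESCs converted in ABCL medium. EpiLCs (epiblast-like cells) and EpiSCs (epiblast stem cells) completed the set, and the media used for these are not given in the sources used here. Activin A was therefore present in the medium of ASCs, ESC-ASCs and AFSCs, always together with other additions, so that its own contribution cannot be told apart from theirs. ASC lines were derived from AFSC lines that carry a GOF-GFP or a Stella-GFP reporter. Unlike the labels, the methods of the study describe the blastocysts behind AFSC lines as sired by transgenic males of mixed strain background. The groups are therefore not shown to share a genotype. The study calls its transcriptomes biological replicates, but the sources used here do not say which line or culture gave each library, so that p-values measure the spread between these samples only.

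The ligand is cleaved by the convertases *Furin* and *Pcsk6*, then binds activin receptors, for which NODAL and GDF3 but not activin need the co-receptor TDGF1 (Cripto). The receptors phosphorylate SMAD2 and SMAD3, which join SMAD4 and partners such as FOXH1 on DNA. Many target genes act back on the pathway: *Nodal* induces itself, and LEFTY1 and LEFTY2 block the ligand and co-receptor outside the cell. CER1 (Cerberus) binds Nodal directly, and SKIL (SnoN) holds SMAD complexes in a repressed state until it is degraded on signalling. In the embryo, the pathway maintains the epiblast and patterns the primitive streak and definitive endoderm.

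Total counts were 4961934 to 9906473 per sample in 15 samples and 17813619 to 18071600 in the 3 ESC-ASC samples. The file headers also give the ESC-ASC counts another output folder, and whether they were counted apart is not stated. Depth, any separate counting and cell type therefore cannot be told apart for ESC-ASCs. Mitochondrial genes took 14.4% of counts in AFSC replicate 1 and 8.08% in ESC replicate 1, against 1.43 to 4.59% elsewhere. Core pluripotency genes were detected in every sample. The summed level of 7 naive markers was 3379 to 6686 in ESCs, ESC-ASCs and ASCs, against 23.9 to 175 in EpiLCs, AFSCs and EpiSCs. Sums over 5 formative and primed markers were 1926 to 4634 in the latter 3 groups and 248 to 401 in the former. Trophoblast markers (5) summed to 246 to 389 in the former and 31.3 to 45.9 in the latter, most of it *Tfap2c* (mean level 271 in ESCs, 190.3 in ASCs and 145 in ESC-ASCs) and, in ESC-ASCs, *Ascl2* (141). *Elf5* was at most 0.203 in every group mean. *Cdx2* had a mean level of 94.9 in ESCs and 51.1 in ASCs but 0.37 in ESC-ASCs. It was 1.72 in EpiLCs, 2.19 in AFSCs and 3.64 in EpiSCs. *Krt7* was 13.9 in EpiSCs and 13.8 in ESC-ASCs against 1.17 in ESCs. Fibroblast feeder markers (5) summed to 16.9 to 116 over all groups. Here and below, a level is the count divided by the DESeq2 size factor of the sample and by the exonic length of the gene in kb.

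*Lefty1* (chr1:180935022-180938400, plus strand, GRCm38) and *Lefty2* (chr1:180893108-180899103, plus strand) lie side by side, 35919 bp apart. Their levels differed in opposite directions in some of the comparisons below, and the sequences are shown because reads must tell the genes apart for this to be seen. Their coding sequences, of 1104 bases each, were identical at 1014 positions, or 91.8%. The longest identical run was 140 bases, and 3 runs had 100 bases or more. A stretch of 150 bases in the first coding exon, bases 28 to 177 of the coding sequence in both genes, holds 39 of the differences, which are shown in capitals (GENCODE M21 transcripts, GRCm38, *Lefty1* at chr1:180935137-180935286 and *Lefty2* at chr1:180893211-180893360, both plus strand).
Lefty1: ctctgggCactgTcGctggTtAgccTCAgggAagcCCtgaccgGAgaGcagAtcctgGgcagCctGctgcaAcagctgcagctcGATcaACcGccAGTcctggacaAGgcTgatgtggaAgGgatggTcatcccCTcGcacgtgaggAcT
Lefty2: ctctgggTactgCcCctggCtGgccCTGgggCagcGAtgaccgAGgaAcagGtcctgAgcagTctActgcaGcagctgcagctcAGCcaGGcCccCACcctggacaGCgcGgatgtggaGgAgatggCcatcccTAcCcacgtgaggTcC
The authors' counting gave a fragment that mapped to several places to each of them. In AFSCs, the *Lefty2* count was 1.80 to 2.29% of the *Lefty1* count, so that at most this share of *Lefty1* fragments was counted at *Lefty2* as well. By this bound, all *Lefty2* counts of AFSCs could be such fragments. In ESCs, ESC-ASCs and ASCs the *Lefty1* count was 16.8 to 29.3% of the *Lefty2* count, a looser bound in the other direction. The part of shared fragments in the smaller count of each pair was not tested, here or in the comparisons below. No exon of the 7 genes overlapped an exon of another gene in the tables.

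**Figure D1:**
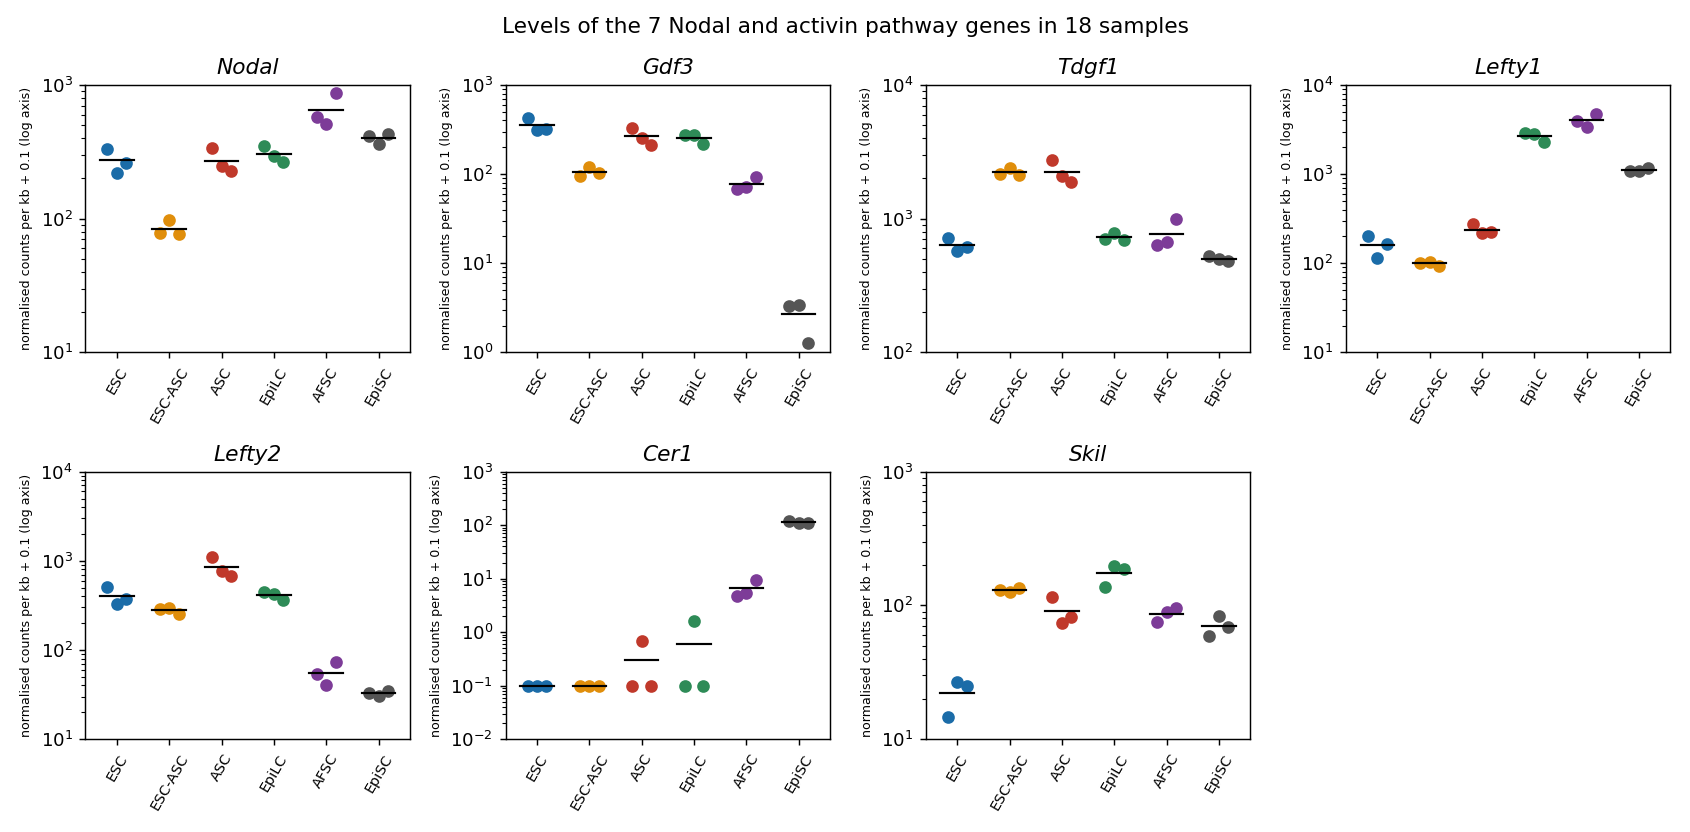
Levels of the 7 genes in 18 samples, in counts per size factor and kb with 0.1 added, on a log axis. Points are samples and lines are the means of 3 samples. *Lefty1* is at or above 1078 in all EpiLC, AFSC and EpiSC samples and at or below 273 in the rest, whereas *Lefty2* is lowest in AFSCs and EpiSCs.

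Among the ligands, *Nodal* (chr10:61417972-61425338, plus strand) was expressed in every group and was highest in AFSCs. Its level was 579, 512 and 868 in AFSCs, 418, 364 and 428 in EpiSCs, and 349, 293 and 264 in EpiLCs. ESCs had 334, 221 and 263 and ASCs 338, 249 and 228, so that these groups overlapped each other and EpiLCs. ESC-ASCs were lowest, at 77.9, 97.9 and 76.3, below every other sample. In group means ± SD (n = 3) the order was AFSCs (653 ± 189), EpiSCs (404 ± 34.3), EpiLCs (302 ± 43.2), ESCs (272 ± 57.2), ASCs (272 ± 58.5) and ESC-ASCs (84.1 ± 12.04). Of neighbours in this order, AFSCs differed from EpiSCs and ASCs from ESC-ASCs (edgeR's quasi-likelihood test, adjusted p = 0.00693 and 2.07e-06), while EpiSCs, EpiLCs, ESCs and ASCs did not differ step by step (adjusted p = 0.101 to 0.961). Further apart in the order, *Nodal* was called higher in EpiSCs than in ESCs and ASCs, by 0.565 and 0.579 on the log2 scale (edgeR, adjusted p = 0.0192 and 0.0149). As these are bulk samples, fewer cells that express a gene and less RNA per cell cannot be told apart.

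*Gdf3* (chr6:122605403-122610087, minus strand), a ligand of the same receptors that also interferes with BMPs, followed another order. The level was 429, 309.8 and 316 in ESCs, 326, 256 and 211 in ASCs and 272, 271 and 219 in EpiLCs. ESC-ASCs had 95.8, 119 and 102, AFSCs had 68.4, 72.1 and 92.8, and EpiSCs had 3.25, 3.27 and 1.18, from 3 to 9 counts per sample. ASCs overlapped both ESCs and EpiLCs, which did not overlap each other, while every EpiSC sample lay far below all others. ESCs and ASCs (adjusted p = 0.0577), ASCs and EpiLCs (adjusted p = 0.890), and ESC-ASCs and AFSCs (adjusted p = 0.0541) were not separated by edgeR, whereas EpiLCs exceeded ESC-ASCs (adjusted p = 6.75e-06) and AFSCs exceeded EpiSCs 30.6-fold (adjusted p = 2.63e-10). EpiSCs were thus second highest for *Nodal* and lowest for *Gdf3*.

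The co-receptor gene *Tdgf1* (chr9:110939603-110946158, minus strand) separated the cells in ABCL medium from all others. Its level was 2745, 2087 and 1879 in ASCs and 2157, 2411 and 2109 in ESC-ASCs. In AFSCs it was 637, 675 and 996, in EpiLCs 709, 786 and 691, in ESCs 723, 574 and 609, and in EpiSCs 530.0, 499.8 and 481. All 6 samples in ABCL lay above all 12 others, and ASCs and ESC-ASCs overlapped. Between ASCs and ESC-ASCs the log2 fold change was within -0.35 to 0.35 (95% confidence interval, edgeR, adjusted p = 0.998). The step from ESC-ASCs to AFSCs was 1.51 (standard error 0.172, adjusted p = 2.84e-07, edgeR), and the lower neighbours AFSCs, EpiLCs, ESCs and EpiSCs were not separated from the next (adjusted p = 0.0878 to 0.739). Among groups further apart, *Tdgf1* was lower in EpiSCs than in AFSCs (given below) and than in EpiLCs (log2 fold change -0.55, edgeR, adjusted p = 0.0116). Fragments from *Tdgf1* that also map elsewhere were counted at *Tdgf1* in full.

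The antagonists showed the sharpest contrasts. *Lefty1* had levels of 3931, 3333 and 4730.1 in AFSCs, 2896, 2816 and 2299 in EpiLCs and 1079, 1078 and 1164 in EpiSCs. It was 273, 218 and 222 in ASCs, 200.5, 113 and 164 in ESCs and 101, 103 and 93.5 in ESC-ASCs. Samples of the 6 groups did not overlap in this order, and each step was past the threshold (edgeR, adjusted p from 2.44e-09 to 0.0129). The largest step, from EpiSCs down to ASCs, was 2.23 on the log2 scale (standard error 0.178).

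*Lefty2* was highest in ASCs and lowest in AFSCs and EpiSCs. Its level was 1091, 763 and 673 in ASCs, 512, 329 and 376 in ESCs and 285, 298 and 255 in ESC-ASCs, and 444, 427 and 362 in EpiLCs. AFSCs had 54.2, 40.3 and 73.0, and EpiSCs 33.2, 30.4 and 34.4. EpiLCs and ESCs overlapped and were not separated (edgeR, adjusted p = 0.904), and the other groups did not overlap. The step from ESC-ASCs down to AFSCs was 2.30 (standard error 0.213, adjusted p = 1.84e-08, edgeR).

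The ratio of *Lefty1* to *Lefty2* within a sample summarises this. It was 64.8 to 82.6 in AFSCs, 32.5 to 35.5 in EpiSCs and 6.35 to 6.59 in EpiLCs, against 0.344 to 0.435 in ESCs, 0.347 to 0.367 in ESC-ASCs and 0.250 to 0.330 in ASCs. *Lefty2* was therefore the higher of the pair in all 9 samples of the groups with naive markers and *Lefty1* in all 9 others. The sum of both levels relative to *Nodal* varied less, from 2.00 to 2.14 in ESCs and 2.66 to 3.04 in EpiSCs to 9.57 to 11.1 in EpiLCs. ASCs (3.92 to 4.03), ESC-ASCs (4.10 to 4.95) and AFSCs (5.53 to 6.89), all grown with activin A, lay between these.

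**Figure D2:**
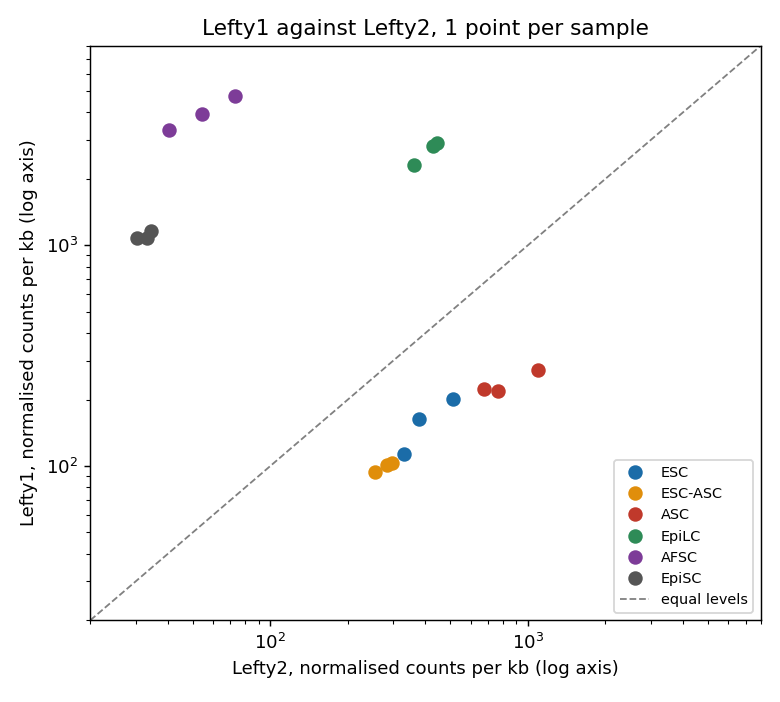
Level of *Lefty1* (vertical) against *Lefty2* (horizontal) in counts per size factor and kb, both on log axes, 1 point per sample. The 9 samples of ESCs, ESC-ASCs and ASCs lie below the line of equal levels and the 9 samples of EpiLCs, AFSCs and EpiSCs above it.

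*Cer1* (chr4:82881751-82885148, minus strand), which marks anterior visceral and definitive endoderm in the embryo, was highest in EpiSCs and had at most 3 counts in any sample of 4 groups. It had 158, 220 and 201 counts in EpiSCs (levels 119, 111 and 110.3) and 6, 8 and 16 counts in AFSCs (4.65, 5.33 and 9.53). EpiLCs had 0, 3 and 0 counts, ASCs 0, 1 and 0, and the ESC and ESC-ASC samples none. The pooled level in EpiSCs was at least 148-fold higher than in ESCs and at least 394-fold higher than in ESC-ASCs, with the floor set at 3 counts over the 3 libraries of a group, and 16.8-fold higher than in AFSCs by the fit (log2 fold change 4.07, standard error 0.339, adjusted p = 1.72e-07, edgeR). *Cer1* reached 10 counts in 4 samples only and so entered the tests through the groups where it was high. The summed level of 7 endoderm markers was 241 to 263 in EpiSCs and 106 to 136 in AFSCs, against 33.2 to 60.9 in the other groups, and all 7 were detected in every sample of EpiSCs, ESC-ASCs and ASCs. *Foxa2* made up most of the sum in AFSCs (90.5 ± 8.48, SD, n = 3) and EpiSCs (153 ± 8.57), whereas *Gata4*, *Hhex* and *Sox7* had lower means in AFSCs (0.41, 18.7 and 0.54) than in ESCs (5.03, 42.3 and 0.96). These genes were also lower in EpiSCs than in ESCs (1.53, 33.2 and 0.32), as was *Dab2* (2.27 against 5.26). *Gata6* and *Sox17* were higher in EpiSCs (26.5 and 34.6) than in ESCs (1.54 and 0.40). The part of these markers in the *Cer1* level was not tested. Intervals and floors cover counting error only.

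*Skil* (chr3:31095058-31122577, plus strand), the SMAD repressor, was lowest in ESCs. Its level was 14.6, 26.5 and 25.1 in ESCs, against 59.3, 82.6 and 68.4 in EpiSCs, 74.5, 89.3 and 95.5 in AFSCs and 116, 73.8 and 82.5 in ASCs. ESC-ASCs had 129, 125 and 136 and EpiLCs 138, 198 and 189. The step from EpiSCs to ESCs was 1.64 on the log2 scale (standard error 0.219, adjusted p = 2.46e-06, edgeR), and all ESC samples lay below the 15 others. ESC-ASCs and EpiLCs (adjusted p = 0.0615), ASCs and AFSCs (adjusted p = 0.859), and AFSCs and EpiSCs (adjusted p = 0.249) were not separated by edgeR.

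ESC-ASCs were compared with ESCs, the kind of culture from which ESC-ASCs are made. The study converted 2 ESC lines and passaged them repeatedly in ABCL medium. Which line gave the ESC and ESC-ASC libraries is not stated, so that medium, line and passage cannot be told apart. The co-receptor and the repressor were higher in ESC-ASCs and the ligands and Lefty genes lower. *Tdgf1* was 3.48-fold and *Skil* 5.74-fold higher (log2 fold changes 1.80 and 2.52, standard errors 0.174 and 0.222, adjusted p = 5.36e-08 and 1.64e-08, edgeR). *Nodal* fell by 1.70 and *Gdf3* fell by 1.74 on the log2 scale (standard errors 0.206 and 0.185, adjusted p = 9.54e-07 and 1.92e-07, edgeR). *Lefty1* fell by 0.68 and *Lefty2* fell by 0.55 (standard errors 0.180 and 0.195, adjusted p = 0.00309 and 0.0213, edgeR). In all, 2 of 7 members were called higher and 4 lower at an adjusted p below 0.05, against 30.6% of the 16901 genes tested called higher and 29.6% lower. *Cer1* had no counts in either group. The median log2 fold change was -0.55 over the members, -0.61 without *Cer1*, and 0.03 over all genes. The *Lefty2* call ended with library totals as the only scaling (adjusted p = 0.0602) and without ESC replicate 1 (0.127), ESC-ASC replicate 1 (0.0523) or ESC-ASC replicate 3 (0.0871). With 2 libraries per group the calls of *Lefty1* and *Lefty2* ended, at adjusted p = 0.0835 and 0.0711.

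Beyond the members, a list of 30 further pathway genes was followed, of which *Inhba* (at most 7 counts in a sample) and *Acvr1c* (at most 1) had too few counts to be tested. In ESC-ASCs against ESCs, 7 of the 28 tested were higher and 10 lower, with a median of -0.32 against 0.03 over all genes. The largest changes were in the target transcription factor *Gsc*, which fell by 4.80 (standard error 0.245, adjusted p = 1.36e-11, edgeR), and in the co-receptor *Cfc1* (Cryptic), which fell by 3.60 (standard error 0.610, adjusted p = 5.11e-05). The T-box factor *Eomes* rose by 2.99 (standard error 0.255, adjusted p = 1.06e-08, edgeR) and the follistatin-like antagonist *Fstl3* by 2.57 (standard error 0.525, adjusted p = 0.000335). The inhibin subunit gene *Inha* had 1 count in ESCs and 37 in ESC-ASCs, a ratio of 13.9 (95% counting interval 2.35 to 565; edgeR, adjusted p = 0.0005). *Fstl3* shares 1157 bp of exon with *Prss57*, and *Cfc1* shares 289 bp with *Prss40*, both on the opposite strand, and counting without strand cannot separate these pairs.

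ASCs were compared with AFSCs, the kind of culture from which ASCs are derived. Activin A stayed in the medium, and BMP4, CHIR99021 and LIF replaced bFGF. The methods of the study report that cells died in ABCL medium and that GFP-positive colonies appearing later were isolated and expanded. Medium and selection of colonies therefore cannot be told apart in this comparison. The Lefty genes exchanged places. *Lefty1* fell by 4.10 and *Cer1* from 30 pooled counts to 1, while *Lefty2* rose by 3.88 (*Lefty1* and *Lefty2*: standard errors 0.191 and 0.223, adjusted p = 1.94e-12 and 3.45e-11, edgeR). *Nodal* fell by 1.29 (standard error 0.199, adjusted p = 1.63e-05), and *Gdf3* and *Tdgf1* rose by 1.74 and 1.51 (standard errors 0.192 and 0.172, adjusted p = 2.62e-07 and 3.87e-07, edgeR). *Skil* was 0.05 apart, with a 95% confidence interval of -0.39 to 0.48 (adjusted p = 0.859), and was called lower in ASCs with 2 libraries per group, at -0.24 (adjusted p = 0.0293, edgeR). The members called were 3 higher and 3 lower, against 32.8% and 31.2% of all genes tested, and their median was 0.05, against 0.02 over all genes. For *Cer1*, the ratio of AFSCs to ASCs was 32.7 with a counting interval of 5.43 to 1333 (edgeR, adjusted p = 0.000207).

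Of the pathway list, 7 genes were higher and 13 lower in ASCs than in AFSCs, with a median of -0.54 (-0.55 with genes absent from a group at their bound). *Pcsk6*, a convertase that cleaves Nodal, rose by 5.26 (standard error 0.264, adjusted p = 5.21e-12, edgeR), from a level of 3.71 ± 1.42 to 149 ± 23.6 (SD, n = 3). *Inhbb*, which encodes the activin B subunit, rose by 4.13 (standard error 0.484, adjusted p = 5.70e-07, edgeR). The endoderm factor *Foxa2* fell by 6.84 (standard error 0.299, adjusted p = 7.33e-13, edgeR). *Lhx1*, a LIM homeobox factor, had 62 counts in AFSCs and none in ASCs, at least 22.5-fold lower in ASCs (edgeR, adjusted p = 3.89e-07). *Cfc1* had 23 counts in AFSCs and 1 in ASCs, a ratio of 25.1 (counting interval 4.07 to 1032; edgeR, adjusted p = 0.000303).

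The difference between cells in ABCL medium and their kind of starting culture was compared between the origins. It was tested directly, as the ASC to AFSC difference minus the ESC-ASC to ESC difference. No sample is shared between these differences. *Lefty2*, *Gdf3*, *Lefty1* and *Skil* differed between the origins and *Nodal* and *Tdgf1* were not shown to differ. The difference of log2 fold changes was 4.43 for *Lefty2* (standard error 0.293, adjusted p = 2.15e-10) and 3.47 for *Gdf3* (standard error 0.267, adjusted p = 1.77e-09) in edgeR's test. For *Lefty1* it was -3.42 (standard error 0.253, adjusted p = 1.01e-09, edgeR) and for *Skil* -2.48 (standard error 0.300, adjusted p = 9.11e-07). *Lefty2* and *Gdf3* were thus higher in ASCs than in AFSCs and lower in ESC-ASCs than in ESCs. *Lefty1* was lower in both comparisons by unequal amounts. *Skil* was higher in ESC-ASCs than in ESCs and was not called between ASCs and AFSCs. The contrast also equals the difference of ASCs to ESC-ASCs minus that of AFSCs to ESCs, so that starting levels enter it. For *Lefty1* and *Skil* the starting differences were 4.67 and 1.95, and those in ABCL medium 1.25 and -0.52. For *Lefty2* and *Gdf3* they were -2.84 and -2.16 at the start and 1.59 and 1.31 in ABCL medium. The interval was -0.181 to 0.997 for *Nodal* (adjusted p = 0.225, edgeR) and -0.78 to 0.22 for *Tdgf1* (adjusted p = 0.321). *Cer1* had no counts in ESCs or ESC-ASCs, so that no difference could be estimated. Of the 7 members, 2 were called higher and 2 lower, beside 30.8% and 27.7% of all genes tested, with a median of -0.28 against 0.03. Without AFSC replicate 3 *Nodal* also differed, by 0.66 (adjusted p = 0.0348, edgeR), and with 2 libraries per group *Tdgf1* did, by -0.65 (adjusted p = 0.00710).

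**Figure D3:**
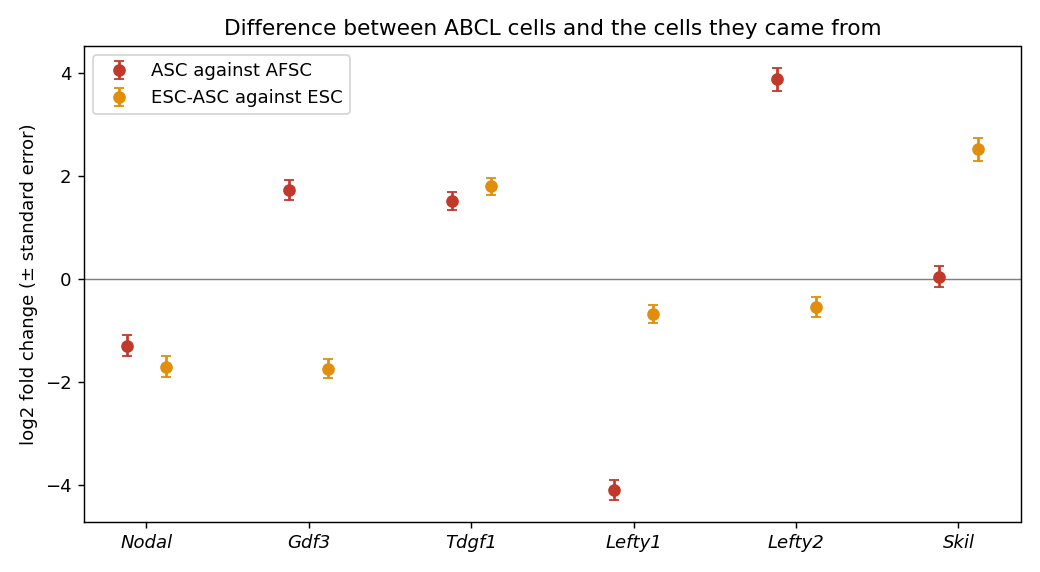
Log2 fold change of 6 genes for ASCs against AFSCs and for ESC-ASCs against ESCs, with bars of ± 1 standard error from the fit. *Tdgf1* lies at 1.51 and 1.80, whereas *Lefty2* lies at 3.88 and -0.55. *Cer1* is left out because it had no counts in ESCs and ESC-ASCs.

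In the same contrast, 9 genes of the pathway list were higher and 11 lower, with a median of -0.51. *Pcsk6* had the largest positive difference, 6.72 (standard error 0.331, adjusted p = 4.02e-12, edgeR). It was higher in ASCs than in AFSCs and lower by 1.46 in ESC-ASCs than in ESCs. The transcription factor genes *Foxa2* (-6.45, standard error 0.717, adjusted p = 2.95e-07) and *Eomes* (-5.89, standard error 0.301, adjusted p = 6.49e-12, edgeR) had the largest negative ones with counts in all 4 groups, although the mean level of *Foxa2* was below 1 in ESCs, ESC-ASCs and ASCs. *Lhx1* was also called (edgeR, adjusted p = 0.00115), with no counts in ASCs, 2 in ESCs and 4 in ESC-ASCs, so that its size is not given. *Eomes* reached 21.6 ± 3.83 in ASCs and 19.7 ± 1.24 in ESC-ASCs (SD, n = 3), from 159 ± 33.8 in AFSCs and 2.37 ± 0.417 in ESCs.

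The end points in ABCL medium were then set against each other. ASCs had more of the ligands and Lefty genes than ESC-ASCs, and no call was made for *Tdgf1* (given above). *Nodal* was 3.21-fold, *Lefty2* 3.001-fold, *Gdf3* 2.48-fold and *Lefty1* 2.38-fold higher (log2 fold changes 1.68, 1.59, 1.31 and 1.25, standard errors 0.204, 0.197, 0.183 and 0.177, adjusted p = 2.07e-06 to 1.28e-05, edgeR). *Skil* fell by 0.52 (standard error 0.204, adjusted p = 0.0392, edgeR). The call for *Skil* ended in 5 of the 18 fits that left out a library, with adjusted p of 0.166 and 0.120 without ASC replicate 2 or 3 and of 0.0704, 0.0673 and 0.0885 without ESC-ASC replicate 1, 2 or 3, and with library totals only (0.224). Members called were 4 higher and 1 lower, against 27.7% and 23.0% of all genes tested (54.6% of calls being higher, or 66.2% with library totals only), with a median of 1.31 (1.28 without *Cer1*) against 0.05. In the pathway list 8 genes were higher and 2 lower, with a median of 0.11. The inhibitory SMAD gene *Smad7* rose by 2.43 (standard error 0.127, adjusted p = 6.66e-11, edgeR), *Gsc* by 1.86 (standard error 0.284, adjusted p = 2.76e-05) and the type II receptor gene *Acvr2b* by 1.04 (standard error 0.265, adjusted p = 0.00313). Both convertases were higher in ASCs, *Furin* by 1.85 (standard error 0.152, adjusted p = 1.80e-08) and *Pcsk6* by 1.37 (standard error 0.195, adjusted p = 1.39e-05, edgeR). The difference in depth between these groups, and any in counting, could not be separated from the difference in origin.

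ASCs had more of the co-receptor, both Lefty genes and *Skil* than ESCs, and no call was made for *Nodal* or *Gdf3*. *Skil* was 3.99-fold, *Tdgf1* 3.48-fold, *Lefty2* 2.06-fold and *Lefty1* 1.49-fold higher (standard errors of the log2 fold changes 0.221, 0.174, 0.196 and 0.179, adjusted p = 6.62e-07, 1.27e-07, 0.000248 and 0.0129, edgeR). The interval of the log2 fold change was -0.43 to 0.40 for *Nodal* (adjusted p = 0.961) and -0.80 to -0.05 for *Gdf3* (adjusted p = 0.0577, edgeR). Of the members, 4 were higher and none lower, against 26.4% and 23.9% of all genes tested (52.5% of calls being higher, or 68.1% with library totals only), with a median of 1.04 (0.81 without *Cer1*) against 0.02. The *Lefty1* call ended without ASC replicate 1 (adjusted p = 0.0549) or ESC replicate 2 (0.0924), and *Gdf3* was called lower without ASC replicate 1 (0.0128), AFSC replicate 1 (0.0474) or EpiSC replicate 3 (0.0489) and with 2 libraries per group (0.0107).

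In the pathway list, 9 genes were higher and 6 lower in ASCs than in ESCs, with a median of -0.06 (-0.04 with genes at their bound). *Eomes* rose by 3.11 (standard error 0.261, adjusted p = 2.24e-08) and *Fstl3* by 2.58 (standard error 0.549, adjusted p = 0.000751), and *Gsc* fell by 2.94 (standard error 0.227, adjusted p = 7.53e-09, edgeR). *Inha* had 26 counts in ASCs and 1 in ESCs (ratio 21.0, counting interval 3.45 to 861; edgeR, adjusted p = 0.000166). *Cfc1* had 25 in ESCs and 1 in ASCs (ratio 30.9, counting interval 5.07 to 1270.4; edgeR, adjusted p = 0.000203).

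AFSCs, grown with activin A and bFGF, were compared with ESCs. *Lefty1* was 25.4-fold, *Skil* 3.87-fold and *Nodal* 2.42-fold higher, while *Lefty2* was 7.18-fold and *Gdf3* 4.47-fold lower. The log2 fold changes were 4.67 for *Lefty1* (standard error 0.199, adjusted p = 3.25e-13), 1.95 for *Skil* (standard error 0.221, adjusted p = 2.97e-07) and 1.28 for *Nodal* (standard error 0.2001, adjusted p = 1.82e-05, edgeR). They were -2.84 for *Lefty2* (standard error 0.217, adjusted p = 1.18e-09) and -2.16 for *Gdf3* (standard error 0.194, adjusted p = 1.18e-08, edgeR). *Cer1* was at least 8.80-fold higher (edgeR, adjusted p = 0.000166). *Tdgf1* had an interval of -0.07 to 0.64 (adjusted p = 0.157, edgeR) and was called higher with 2 libraries per group, at 0.52 (adjusted p = 0.00374). The members called were 4 higher and 2 lower, against 29.7% and 30.8% of all genes tested, with a median of 1.28 against -0.03.

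Transcription factors led the pathway list in this comparison, in which 13 genes were higher and 9 lower with a median of 0.30. *Foxa2* rose by 6.54 (standard error 0.304, adjusted p = 1.12e-12) and *Eomes* by 6.01 (standard error 0.236, adjusted p = 1.16e-13, edgeR). *Pcsk6* fell by 5.35 (standard error 0.265, adjusted p = 2.54e-12, edgeR). *Inha* had 35 counts in AFSCs and 1 in ESCs (ratio 30.8, counting interval 5.18 to 1251; edgeR, adjusted p = 9.00e-06).

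The groups with activin A in their medium shared 1 member that was above ESCs. *Skil* was higher in each of ESC-ASCs, ASCs and AFSCs, by 2.52, 2.00 and 1.95, and no member was lower in all of these comparisons, which share the ESC samples. Over all genes tested, 10.3% were called higher and 9.28% lower in all of them. From the pathway list, 5 genes were higher throughout (among them *Eomes*, *Fstl3*, *Inha* and the ubiquitin ligase gene *Smurf2*) and 3 were lower (*Gsc*, *Smad3* and the repressor gene *Tgif1*). *Skil* was also higher in EpiLCs and EpiSCs, by 2.97 and 1.64. By mean level in EpiLCs and EpiSCs, *Eomes* (12.5 and 472) and *Inha* (5.96 and 25.3) also exceeded ESCs (2.37 and 0.25). *Smurf2* was 48.4 and 69.0 against 46.5, and *Fstl3* 9.12 and 1.22 against 1.90. *Smad3* (27.4 and 67.2) and *Tgif1* (140 and 197) were below ESCs (81.4 and 224). *Gsc* was 4.11 and 845 against 188.

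EpiLCs, an intermediate made from ESCs, were compared with ESCs to follow the genes on leaving the naive state. *Lefty1* was 17.003-fold and *Skil* 7.82-fold higher (log2 fold changes 4.09 and 2.97, standard errors 0.194 and 0.226, adjusted p = 2.11e-12 and 1.62e-09, edgeR). No call was made for 3 members with counts in both groups, whose intervals were -0.25 to 0.58 for *Nodal* (adjusted p = 0.507), -0.15 to 0.56 for *Tdgf1* (0.317) and -0.38 to 0.44 for *Lefty2* (0.904, edgeR). *Gdf3* fell by 0.46 (standard error 0.181, adjusted p = 0.0388), a call that ended without EpiLC replicate 2 or 3 or ESC replicate 1 (adjusted p = 0.0504, 0.152 and 0.170) and with library totals only (0.0677). With 2 libraries per group *Tdgf1* was called higher, at 0.35 (adjusted p = 0.0355, edgeR). In all 2 members were higher and 1 lower, against 28.7% and 26.6% of all genes tested, with a median of 0.21 (0.19 without *Cer1*) against 0.06. The *Lefty2* samples of EpiLCs overlapped those of ESCs, and the *Lefty1* samples did not.

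The pathway list had 10 genes higher and 8 lower in EpiLCs than in ESCs, with a median of 0.09 (0.06 with genes at their bound). *Gsc* fell by 5.49 (standard error 0.296, adjusted p = 1.20e-11) and *Pcsk6* fell by 3.41 (standard error 0.222, adjusted p = 1.85e-10, edgeR). *Inha* had 26 counts in EpiLCs against 1 in ESCs (ratio 20.1, counting interval 3.30 to 823; edgeR, adjusted p = 0.000119). *Inhbb* had 2 against 20 (ratio of ESCs to EpiLCs 12.9, counting interval 3.14 to 114; edgeR, adjusted p = 0.00122).

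Of the groups with few naive markers, AFSCs were set against EpiSCs. AFSCs had more of every member except *Cer1*, although for *Skil* the difference missed the threshold. *Gdf3* was 30.6-fold and *Lefty1* 3.65-fold higher (log2 fold changes 4.93 and 1.87, standard errors 0.300 and 0.173, adjusted p = 2.63e-10 and 7.34e-08, edgeR). *Lefty2*, *Nodal* and *Tdgf1* were higher by 0.79, 0.71 and 0.63 (standard errors 0.228, 0.196 and 0.170, adjusted p = 0.00902, 0.00693 and 0.00623, edgeR). The part of fragments shared with *Lefty1* in the *Lefty2* difference was not tested. *Skil* had an interval of -0.12 to 0.75 (adjusted p = 0.249) and was called with 2 libraries per group, at 0.52 (adjusted p = 8.18e-05, edgeR). Counts were 5 higher and 1 lower, against 21.6% and 17.8% of all genes tested, with a median of 0.71 against 0.02. AFSC replicate 3 had the highest *Nodal*, *Tdgf1* and *Lefty2* level of its group, and without it the calls of these genes ended (adjusted p = 0.0689, 0.0622 and 0.0825), leaving 3 members called.

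In the pathway list, EpiSCs were the higher side: 5 genes were higher and 16 lower in AFSCs, with a median of -0.53. *Gsc* fell by 4.12 (standard error 0.213, adjusted p = 3.11e-11), *Lhx1* by 3.10 (standard error 0.270, adjusted p = 9.12e-08), *Inhbb* by 2.65 (standard error 0.553, adjusted p = 0.000787) and the primitive streak factor *Mixl1* by 2.27 (standard error 0.288, adjusted p = 3.79e-06, edgeR). *Fstl3* rose by 2.61 (standard error 0.607, adjusted p = 0.00197, edgeR). The summed level of 5 primitive streak and mesoderm markers, which include *Mixl1*, was 488 to 507 in EpiSCs and 78.7 to 152 in AFSCs. Most of this sum was *T*, with means of 417 in EpiSCs and 85.7 in AFSCs. *Hand1* was lower in EpiSCs (0.37) than in AFSCs (1.57), and *Mesp1* was 0.69 in EpiSCs and 0 in AFSCs. The part of such cells in the differences between AFSCs and EpiSCs was not tested.

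Over the other 8 pairs of groups, used above for the order of levels, the members called in either direction were 6 of 7 for EpiSCs against ESCs (61.2% of all genes tested), 6 for EpiLCs against ESC-ASCs (64.1%) and 6 for AFSCs against ESC-ASCs (69.0%). They were 7 for EpiSCs against ESC-ASCs (72.2%), 4 for EpiLCs against ASCs (59.8%), 6 for EpiSCs against ASCs (66.5%), 6 for AFSCs against EpiLCs (47.1%) and 6 for EpiSCs against EpiLCs (48.6%). *Cer1* in EpiLCs against ESC-ASCs was 1 of these calls and rested on 3 counts against none. With so many genes called, a call alone sets no member apart from the rest of the genome.

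Receptor and SMAD genes of the pathway list, apart from *Acvr1c*, were detected in all groups. The type I receptor gene *Acvr1b* (ALK4) ranged from 38.4 ± 9.32 in EpiLCs to 156 ± 14.5 in ESC-ASCs, and the type II receptor genes *Acvr2a* from 17.3 ± 3.10 in ESC-ASCs to 33.7 ± 3.69 in EpiSCs and *Acvr2b* from 26.4 ± 6.02 in AFSCs to 89.1 ± 4.59 in ASCs (mean level ± SD, n = 3). *Acvr2a* shares 446 bp of exon with *Orc4* on the opposite strand. *Smad4* lay between 107 ± 14.3 in EpiLCs and 148 ± 24.7 in EpiSCs, *Smad2* between 58.3 ± 5.43 in EpiSCs and 105 ± 5.14 in ESC-ASCs, and *Smad3* between 27.4 ± 5.30 in EpiLCs and 81.4 ± 6.63 in ESCs. *Foxh1*, the DNA-binding partner, ranged from 109 ± 35.4 in EpiSCs to 532 ± 94.8 in EpiLCs, and the secreted activin antagonist *Fst* from 10.4 ± 2.37 in ESC-ASCs to 813 ± 62.4 in EpiSCs.

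**Figure D4:**
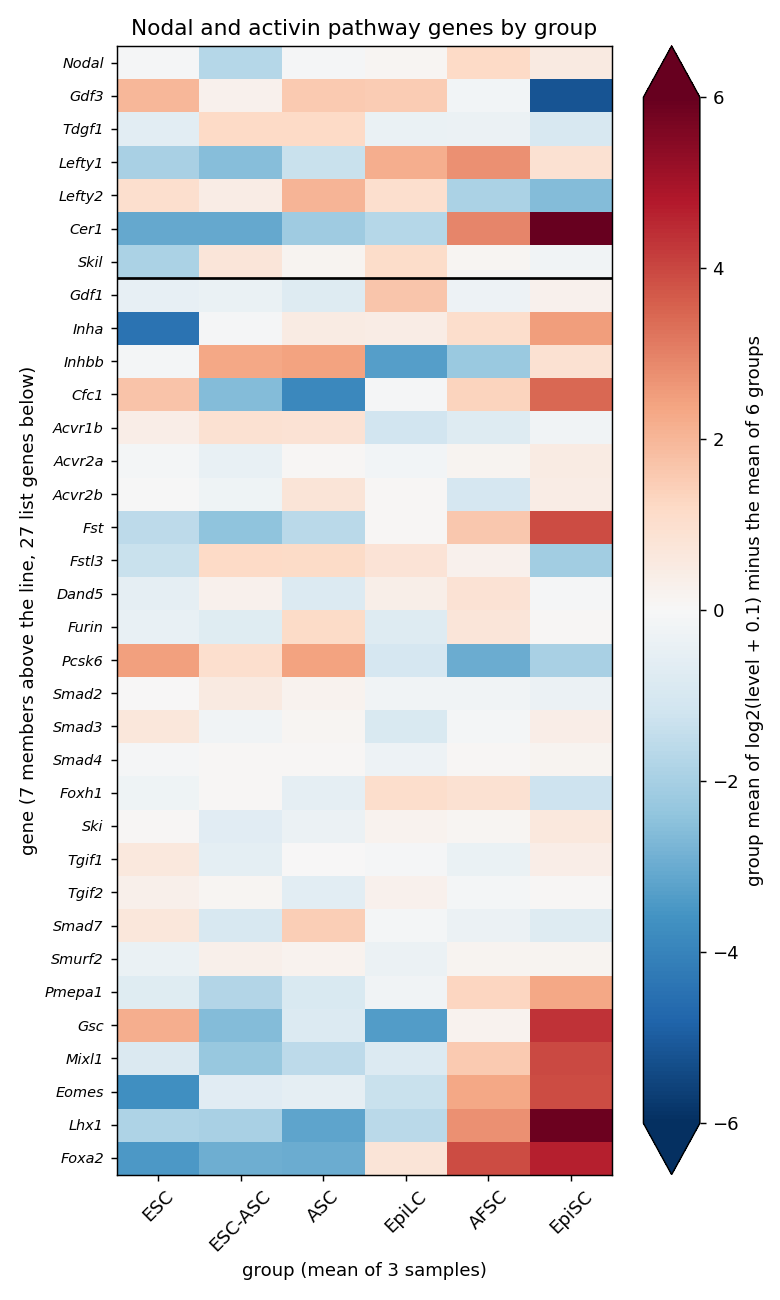
Group means of log2(level + 0.1) for the 7 members (above the line) and 27 of the 28 tested genes of the pathway list (below), each minus its mean over the 6 groups. Red is higher and blue lower than the mean of the gene, and colours saturate at 6 on either side. *Cer1*, *Lhx1*, *Gsc*, *Eomes* and *Foxa2* are reddest in EpiSCs, where *Gdf3* is bluest, and the *Smad4* row is pale.

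For each member, the 3 genes with the nearest pattern were found by the root mean square (RMS) difference of group means of log2(level + 0.1), centred over the 6 groups, among all 16901 genes. *Skil* was closest to *Card19* (0.139), *Cgn* (0.283) and *Tns2* (0.296), and *Tdgf1* to *Rasgef1b* (0.139, 1 to 50 counts), *Wipi1* (0.188) and *Gk* (0.193). For *Nodal* they were *Mir1906-2* (0.118), a microRNA gene of 80 bases with 7 to 60 counts, *Nat2* (0.157, 5 to 38 counts) and *Nckap5l* (0.188). *Gdf3* was nearest to *Cdkn2a* (0.319), *Gdf15* (0.392, 0 to 57 counts) and *Mt2* (0.414). For *Lefty1* the nearest were *Cyp4x1* (0.262), *Tnfsf11* (0.310) and *Rfx6* (0.367), of at most 60 counts in a sample. For *Lefty2* they were *Sarm1* (0.374), *Strip2* (0.378, 0 to 26 counts) and *Igsf23* (0.398, 0 to 16 counts). *Cer1* had no gene as close, the nearest being *Lhx1* (0.931), *Aplnr* (1.02) and *Fabp7* (1.02). Its own range over the groups was also the widest of the members, at 10.2 on the log2 scale, against 4.66 for *Lefty2* and 2.14 for *Tdgf1*. Distances were not scaled to this range. These distances describe 6 group means and were not tested.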

How the data were processed

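RNA-seq libraries of polyA RNA from 18 samples in 6 groups of 3 were analysed. Per the file headers and the methods of the study, the authors mapped paired reads of directional libraries to GRCm38 (mm10) with TopHat2 and counted fragments with featureCounts 1.5.0-p1 over the exons annotated in Ensembl 86. Strand was ignored, the minimum overlap was 10 bp, and fragments that touched several genes or mapped to several places were counted in full for each. The deposited values are raw counts per gene, 1 table per sample. Groups follow the sample labels.

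Levels are counts scaled by the size factors of DESeq2 1.42.0 and by exonic length in kb. Differences were tested with the two-sided quasi-likelihood test of edgeR 4.0.16 (R 4.3.3, limma 3.58.1) in 1 fit of all 18 samples with TMM factors and robust estimation, over 16901 genes (10 or more counts in 3 or more samples). Adjusted p-values follow Benjamini and Hochberg, computed for each comparison over all of these genes, and a gene was called below 0.05. The residual degrees of freedom were 12. The standard error is the log2 fold change divided by the square root of F. Ratios of pooled counts have exact 95% binomial counting intervals. The edgeR script was tested on simulated data.

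Members and lists were chosen with earlier results of these data known. The text names every member in every group and in each named comparison, and for the other 8 pairs of groups gives mainly the number called. It also names the 5 genes of the pathway list with the largest absolute log2 fold change among those called in each named comparison, receptor and SMAD genes by their range, and the 3 genes nearest in pattern to each member. *Foxh1*, *Fst* and the genes shared by the groups with activin A were added after their values were seen. 1 gene of the pathway list is counted with the list but is not reported here by name. Same-numbered samples deviated together in AFSCs and ESCs (correlations 0.137 to 0.332) and in EpiLCs and ESCs (0.110 to 0.299), a hint of pairing from the data and not the labels, and the replicate block changed no call of a member there. Alternatives were DESeq2, RLE factors, library totals only, no filter, filterByExpr, only the groups compared, a replicate block and leaving out each library. Chosen after seeing the data were a fit with 2 libraries per group, without the library most unlike the others of its group, and one without mitochondrial genes. No sample was left out of the results given. Other data of the study were not analysed here.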

Additional observations from a re-analysis of the deposited data

Results flagged for a closer look

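The difference between cells in ABCL medium and their kind of starting culture was unlike between the origins for 4 of 7 members. This was by a test of the contrast itself (ASCs against AFSCs minus ESC-ASCs against ESCs, edgeR). In the same contrast 30.8% of all genes tested were called higher and 27.7% lower, so that the count alone does not set the members apart. *Gdf3* differed by 3.47 on the log2 scale, having been higher in ASCs than in AFSCs by 1.74 and lower in ESC-ASCs than in ESCs (-1.74), in 3 of 3 samples of each pair of groups without overlap. *Lefty2* differed by 4.43 in the same sense, with 3.88 and -0.55. *Lefty1* differed by -3.42, being lower on both sides (-4.10 and -0.68). *Skil* differed by -2.48, from 0.05 with overlapping samples in ASCs and AFSCs to 2.52 in ESC-ASCs against ESCs. The adjusted p of these 4 differences ranged from 2.15e-10 to 9.11e-07 (edgeR). Depth, and possibly the counting, differs between ESC-ASCs and the other groups, and its part in these differences was not tested. The starting cultures also differed (AFSCs against ESCs), by 4.67 for *Lefty1*, 1.95 for *Skil*, -2.84 for *Lefty2* and -2.16 for *Gdf3*, which enters the contrast.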

How the results depend on the processing

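No member that was called turned direction under any alternative run. The sign turned for 4 members near 0 that were not called, and 1 of the turned values was called. *Skil* in ASCs against AFSCs was called lower with 2 libraries per group (-0.24, edgeR, adjusted p = 0.0293) and was -0.17 to 0.18 when 1 library was left out. *Tdgf1* in ASCs against ESC-ASCs was 0.0122 with DESeq2 and with RLE factors, 0.15 with library totals only, 0.0086 with only these groups, 0.0125 without mitochondrial genes and -0.17 to 0.11 with 1 library left out. *Nodal* in ASCs against ESCs was 0.0019 with DESeq2, 0.0035 with RLE factors, 0.20 with library totals only, 0.0201 with no filter, 0.046 with only these groups, 0.0063 with 2 libraries per group, 0.017 without mitochondrial genes and -0.20 to 0.14 with 1 library left out. *Lefty2* in EpiLCs against ESCs was -0.0939 to 0.21 with 1 library left out. Library totals only moved the median of all genes by 0.14 in ASCs against ESC-ASCs, 0.20 in ASCs against ESCs and 0.12 in AFSCs against ESCs. The members called in AFSCs against EpiSCs were 3 to 6 with 1 library left out, 3 being without AFSC replicate 3. The order of groups by mean level was the same by medians for 3 of 7 members. DESeq2 changed no call of a member. *Cer1* fell below the filter in some fits with only the groups compared.

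Deviations of same-numbered samples correlated above 0.1 in 16 of 45 pairs of samples (mean 0.0539, -0.114 to 0.332), and 8 of 18 samples correlated best with their own number. Every pair was above 0.1 for AFSCs and ESCs and for EpiLCs and ESCs, and not for the groups of the other comparisons. With the replicate number as a block, *Gdf3* in ASCs against ESCs was called lower (-0.43, edgeR, adjusted p = 0.0408) and 5 members were called there in place of 4. No other call of a member changed with the block. Depth limits *Cer1*, with 0 to 3 counts per sample in 4 groups, and *Gdf3* in EpiSCs, with 3 to 9.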
